A study of Mus musculus with 4 samples.

Results

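Transcript levels of 4 genes, Pax7, Notch1, Jag1 and Id2, were followed in C2C12 cells treated with a compound labelled Bex. They were taken as every row of the authors' deposited table of differences of 1.5-fold or more that carried exactly one of these symbols. Each gene had 1 row, so 4 of the 559 transcript clusters of that table were used, or 4 of the 536 genes that it names with a single symbol. A transcript cluster is the set of array probes read as 1 gene. Every row of the authors' deposited table also had an unadjusted p-value under 0.05 in the authors' own test of Bex against Ctrl. A gene absent from that table may thus still differ by 1.5-fold or more. The rule therefore used the contrast of Bex with Ctrl itself, and the values below describe these genes without testing them.

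The treated group (Bex) held 2 samples of C2C12 cells kept for 48 h in basal adipogenesis medium with 10 µM Bex, and the control group (Ctrl) held 2 samples kept for 48 h in that medium alone. The labels do not spell Bex out; what is known of the study gives it as bexarotene, a drug that activates retinoid X receptors (RXRs). All cells were grown to confluence before the switch, so both groups share the adipogenic medium, whose ingredients the labels do not list. C2C12 is a single mouse myoblast line that descends from satellite cells, and the labels mention 2 batches of cells without saying which array came from which. P-values therefore measure only the spread between these samples, which may be technical. RNA was read on Affymetrix Mouse Gene 1.0 ST arrays as log2 values made by the authors with RMA, which evens out the overall level between arrays. All values below are on that log2 scale, where a difference of 1 is a doubling.

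Satellite cells are the resident stem cells of skeletal muscle, and the transcription factor Pax7 marks them and is needed to maintain them. In the Notch pathway a ligand such as Jag1 on one cell binds a receptor such as Notch1 on its neighbour. The receptor is then cut, and its inner part moves to the nucleus, where it works with the DNA-binding protein RBPJ. In muscle, Notch signalling keeps satellite cells quiescent and holds back differentiation. Id2 belongs to neither group by definition. It is a helix-loop-helix protein without a DNA-binding region that pairs with E proteins and so keeps MyoD and related factors off their DNA motif, the E-box.

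The genes split in direction, Pax7 and Notch1 being lower with Bex and Jag1 and Id2 higher. The 250 bases before the RefSeq start of each gene are shown so that the lower pair and the higher pair can be compared by sequence. They come from RefSeq on build GRCm38.p6, which held 1 start for each of the 4 genes, and all 4 lie on the minus strand. Capitals mark matches to an E-box (CANNTG) or a CCAAT box (CCAAT, either strand).
Pax7, chr4:139832969-139833218: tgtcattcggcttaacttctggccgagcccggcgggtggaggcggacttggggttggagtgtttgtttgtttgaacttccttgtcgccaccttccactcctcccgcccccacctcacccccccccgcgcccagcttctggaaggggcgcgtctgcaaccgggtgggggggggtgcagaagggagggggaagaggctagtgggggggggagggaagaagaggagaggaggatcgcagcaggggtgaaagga
Notch1, chr2:26503823-26504072: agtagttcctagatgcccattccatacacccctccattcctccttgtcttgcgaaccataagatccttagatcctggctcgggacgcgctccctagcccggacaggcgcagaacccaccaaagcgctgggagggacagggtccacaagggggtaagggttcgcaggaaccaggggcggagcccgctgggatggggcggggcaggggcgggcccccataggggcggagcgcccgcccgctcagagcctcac
Jag1, chr2:137116521-137116770: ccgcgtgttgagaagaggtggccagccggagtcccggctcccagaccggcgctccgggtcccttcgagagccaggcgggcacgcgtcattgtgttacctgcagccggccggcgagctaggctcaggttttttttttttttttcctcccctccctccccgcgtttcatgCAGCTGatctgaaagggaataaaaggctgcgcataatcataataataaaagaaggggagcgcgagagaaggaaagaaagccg
Id2, chr12:25096093-25096342: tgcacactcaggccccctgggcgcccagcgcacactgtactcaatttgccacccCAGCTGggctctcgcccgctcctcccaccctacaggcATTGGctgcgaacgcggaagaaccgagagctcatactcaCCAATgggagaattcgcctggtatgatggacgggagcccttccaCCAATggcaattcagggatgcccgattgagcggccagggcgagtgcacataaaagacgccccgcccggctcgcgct

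An E-box was found in the windows of Jag1 and Id2, the higher pair, and not in those of Pax7 and Notch1. In both cases its letters were CAGCTG, from 82 to 77 bases before the start of Jag1 and from 196 to 191 bases before that of Id2. Of 32851 RefSeq promoter windows of this length, 66.2% hold an E-box, so a match is common. With so few genes in each direction, nothing about direction is read from it, and a link was not tested. Id2 also had 3 CCAAT boxes, 1 of them on the other strand and none overlapping the E-box, against a CCAAT box in 33.8% of all windows. No window of the 4 held TGGGAA, the core letters bound by RBPJ, which 21.6% of all windows hold. None held AGGTCA, the hexamer that RXR and its partner receptors bind, which 14.0% of windows hold, or the TATA box TATAAA, which 12.4% hold. All motifs were searched on both strands, and these are matches of letters, not sites shown to be bound. The share of G and C was 65.2% for Pax7, 66.0% for Notch1, 57.2% for Jag1 and 62.8% for Id2, against a median of 52.4% over all windows.

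**Figure D1:**
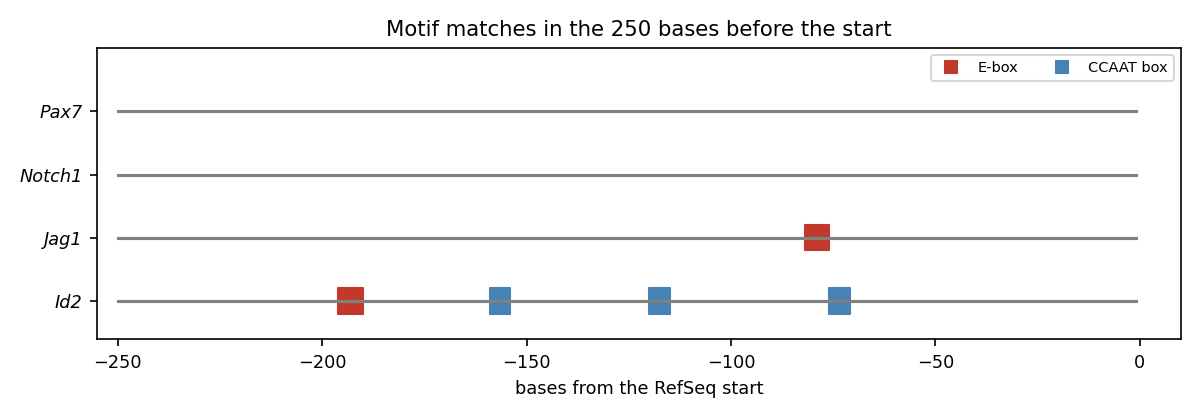
Matches to the E-box (red) and the CCAAT box (blue) along the 250 bases before the RefSeq start of Pax7, Notch1, Jag1 and Id2, with the distance from the start in bases on the x axis. Jag1 and Id2 each have 1 E-box and Id2 has 3 CCAAT boxes, whereas Pax7 and Notch1 have neither.

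The array medians lay between 5.76 and 5.77 for Bex and between 5.78 and 5.80 for Ctrl, over 35557 clusters. Taken over clusters, which do not count as replicates, Pearson's r was 0.9888 for the Bex pair and 0.991 for the Ctrl pair. It was 0.9862 to 0.9879 for pairs made of a Bex and a Ctrl array. The lowest value of any of the 4 genes was 6.38, so all lay above 4.57, the limit under which the lowest 30% of cluster means fall. The number of arrays limits the precision of every value.

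Pax7, the satellite cell factor, read 9.00 and 9.04 on the Bex arrays, against 9.66 and 9.58 on the Ctrl arrays (cluster 10517715). Both Bex arrays were low and both Ctrl arrays high, with a gap of 0.53 between the nearest arrays of the groups. The means were 9.02 ± 0.031 in Bex and 9.62 ± 0.061 in Ctrl (SD, n = 2 each), a Bex minus Ctrl log2 difference of −0.60 ± 0.08 (SE of the limma fit over all clusters), or 1.51-fold lower.

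Notch1, the receptor, read 7.79 on each Bex array, against 8.45 and 8.29 on the Ctrl arrays (cluster 10481056). The Bex arrays hardly differed from each other, and the spread lay between the Ctrl arrays. The means were 7.79 ± 0.002 in Bex and 8.37 ± 0.115 in Ctrl (SD, n = 2 each), a log2 difference of −0.58 ± 0.10 (SE), or 1.49-fold lower. Notch1 thus entered through the authors' own averages, which give a signed fold of −1.58 in the authors' deposited table, while its array values lie just short of the 1.5-fold limit. By array values 3 of the 4 genes differed by 1.5-fold or more, as did 6.45% of all clusters, and nothing is read from this since the rule used the same contrast.

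Jag1, the ligand, read 7.13 and 7.21 on the Bex arrays, against 6.38 and 6.44 on the Ctrl arrays (cluster 10488060). The groups did not overlap, and the nearest arrays were 0.69 apart. The means were 7.17 ± 0.055 in Bex and 6.41 ± 0.047 in Ctrl (SD, n = 2 each), a log2 difference of 0.76 ± 0.08 (SE), or 1.70-fold higher.

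Id2, the inhibitor of myogenic helix-loop-helix factors, read 9.58 and 9.39 on the Bex arrays, against 8.67 and 8.40 on the Ctrl arrays (cluster 10399691). It had the largest difference of the 4 genes and also the widest spread in each group, yet its nearest arrays were 0.72 apart. The means were 9.49 ± 0.136 in Bex and 8.54 ± 0.190 in Ctrl (SD, n = 2 each), a log2 difference of 0.95 ± 0.14 (SE), or 1.93-fold higher. For each of the genes, a change in the number of cells that hold the transcript and one in its level per cell cannot be told apart in such bulk RNA.

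**Figure D2:**
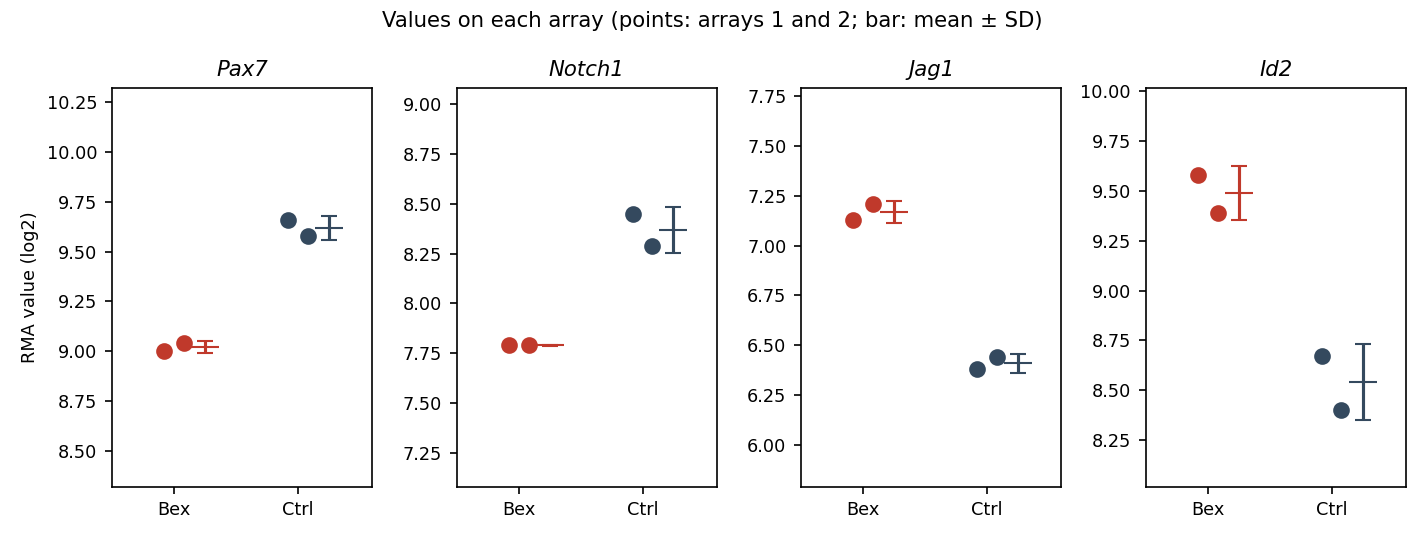
Values of Pax7, Notch1, Jag1 and Id2 on each array (points, log2 RMA value on the y axis), with Bex on the left and Ctrl on the right and the mean ± SD (n = 2) beside the points; every panel spans 2 log2 units. Bex lies under Ctrl for Pax7 and Notch1 and over Ctrl for Jag1 and Id2.

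Between arrays of the same number, Bex minus Ctrl was −0.66 and −0.53 for Pax7 and −0.66 and −0.49 for Notch1. It was 0.76 and 0.77 for Jag1 and 0.91 and 0.99 for Id2. The differences were almost the same for Jag1, whereas for Pax7 and Notch1 the one between arrays numbered 1 was larger in size. The labels do not tie same-numbered arrays together, so these differences only restate the spread between arrays. The groups did not overlap for 4 of 4 genes, which the choice of the genes fixes. Of all 35557 clusters, 44.7% had groups apart, 20.6% with both Bex arrays above both Ctrl arrays and 24.2% with both below.

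Except for Id2, the sizes were modest for the table they came from. Ranked by the fold in the authors' deposited table, Id2 was number 140 and Jag1 number 268 of 347 clusters higher with Bex. In the same table Notch1 was number 167 and Pax7 number 192 of 212 lower clusters. The median log2 difference was 0.88 over its 336 higher genes and −0.76 over its 200 lower genes, so Id2 lay past the median of its direction and the other three lay short of it. Over all 35557 clusters, differences at least as high as that of Id2 made up 1.27% and at least as high as that of Jag1 2.23%. Differences at least as low as that of Pax7 made up 2.67% and as that of Notch1 2.90%.

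**Figure D3:**
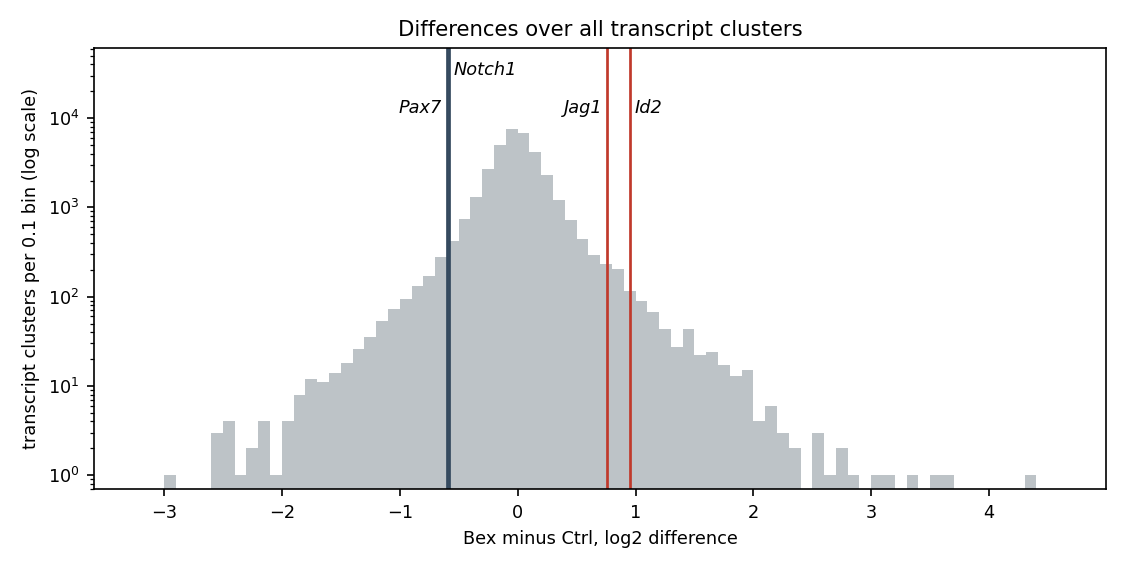
Number of transcript clusters per 0.1 of Bex minus Ctrl log2 difference (log scale on the y axis) over 35557 clusters, with lines at the 4 genes. Pax7 (−0.60) and Notch1 (−0.58) stand on the lower flank, and Jag1 (0.76) and Id2 (0.95) on the upper one, all well inside the extremes.

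The authors' deposited table gives averages of 9.04 in Bex and 9.67 in Ctrl for Pax7 (fold −1.54) and of 7.63 in Bex and 8.29 in Ctrl for Notch1 (fold −1.58), where a minus sign means lower with Bex. For Jag1 it gives 7.44 in Bex and 6.74 in Ctrl (fold 1.63), and for Id2 9.44 in Bex and 8.43 in Ctrl (fold 2.01). The FDR p-values there ran from 0.304 for Pax7 to 0.396 for Id2. Pax7 and Notch1 stand just inside the limit, the smallest fold in the table being 1.51 in size, and genes just outside it could not be named here. The authors' deposited table minus the array mean was 0.267 in Bex and 0.330 in Ctrl for Jag1, and −0.160 in Bex and −0.077 in Ctrl for Notch1, so each gene's averages were shifted the same way in both groups. The Jag1 averages lay above both arrays of their group, and the Notch1 average in Bex lay under both Bex arrays. These averages thus cannot be made from the deposited array values alone, and the reason was not tested.

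Over all clusters, limma's test with Benjamini-Hochberg adjustment called 0 of 35557 at an adjusted p of 0.05 (0%), and so 0 of the 4 genes. At an unadjusted p under 0.05 it counted 4189 clusters (11.8%). A fit whose prior variance follows the level, called the variance-trend fit here, called 427 clusters, or 1.20% (271 higher, 0.762%, and 156 lower, 0.439%). Of the 4 genes it called Pax7, while Jag1, Id2 and Notch1 did not pass. With the replicate number added as a block it called 158 of the 35557 clusters, among them Id2 and no longer Pax7. As the genes were chosen by this contrast, nothing is read from these counts.

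The other genes of the same pathways were taken from lists, and could be named where the authors' deposited table holds them. Selection by that table means that the counts and differences in the next paragraphs describe only genes past its cutoffs of fold and p-value. A listed gene that was not named is not thereby shown to be unchanged. The authors' deposited table holds 559 of all 35557 clusters, and the lists were chosen with earlier results known. How many genes of a list were named, here and for the cell type markers below, is therefore not read as a result. Over all lists 20 of 197 genes were named, 8 higher and 12 lower with a median log2 difference of −0.60, against 336 higher and 200 lower with a median of 0.67 over all 536 named genes. Over all clusters the median was −0.012. The variance-trend fit called 11 of the 20 (3 higher and 8 lower), or 55.0%, against 301 of all 536 named genes, or 56.2%, so the listed genes passed about as often as the table they came from. With the replicate number added to that fit as a block, 4 of the 20 passed, and 158 of all 35557 clusters, which were not selected by the contrast. Limma's main test called 0 of the 20.

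Of 60 genes in the Notch lists 4 were named, 2 higher and 2 lower, against 336 higher and 200 lower over all 536 named genes. The variance-trend fit called 0 of the 4, against 56.2% of all named genes. Besides the ligand Jag1 and the receptor Notch1, the named Notch genes were Numb and Ccnd1. Numb is a membrane-associated adaptor that inhibits Notch receptors, and Ccnd1 is cyclin D1 of the early cell cycle and a reported Notch target. Numb read 8.06 and 7.95 on the Bex arrays, against 7.45 and 7.60 on the Ctrl arrays, a log2 difference of 0.48 ± 0.10 (SE). Ccnd1 read 7.91 and 8.14 in Bex, against 8.87 and 8.71 in Ctrl, a log2 difference of −0.76 ± 0.13 (SE). The named set held a lower receptor, a higher inhibitor of the receptor, a higher ligand and a lower listed target. All 4 were selected by the same contrast. By array values Notch1 (1.49-fold lower) and Numb (1.4-fold higher) lay short of the 1.5-fold limit. Whether Notch signalling differed was not tested. The other 9 ligands, the other 3 receptors and the Hes, Hey and Rbpj genes were not analysed here.

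Of 32 satellite cell genes 7 were named, 2 higher and 5 lower, against 336 higher and 200 lower over all 536 named genes. The variance-trend fit called 2 higher and 4 lower, which is read against the 56.2% of all named genes that it called, and limma's main test called 0. Lower with Pax7 were Cxcr4, the receptor of the chemokine CXCL12, at −0.80 ± 0.08 (log2 difference, SE) and Cd34, a surface sialomucin, at −1.21 ± 0.08. The caveola protein gene Cav1 had a difference of −1.91 ± 0.14. The transcription factor gene Sox8, at −1.28 ± 0.19, was the lower gene that the variance-trend fit did not call. Higher were Spry1, an inhibitor of receptor tyrosine kinase signalling linked to satellite cell quiescence, at 1.13 ± 0.08, and Hgf, the growth factor that activates satellite cells, at 0.60 ± 0.10. Pax7 had the smallest difference of the 5 lower genes.

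Id2 was the only named gene of 9 Id and E protein genes, so its relatives Id1, Id3 and Id4 were not analysed here. The only named myogenic regulator of 26 was Mstn, the secreted inhibitor of muscle growth myostatin, at 1.07 ± 0.19 (log2 difference, SE), which the variance-trend fit did not call. Id genes are known targets of BMP signalling, and of 41 BMP and TGF-beta genes 5 were named, 1 higher and 4 lower. Over all 536 named genes 336 were higher and 200 lower. Bmp4, a BMP ligand, had a log2 difference of −1.39 ± 0.08, and Grem1, an antagonist of BMPs, −0.59 ± 0.09. Ltbp1 and Ltbp2, which encode matrix proteins of the latent TGF-beta binding family, had −0.64 ± 0.09 and −0.76 ± 0.09. Inhba, the activin A subunit, was the higher one at 1.12 ± 0.22. The variance-trend fit called Bmp4, Ltbp1 and Ltbp2, which is read against the 56.2% of all named genes that it called. Whether BMP signalling bears on the Id2 difference was not tested.

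Wnt signalling, which acts on satellite cells beside Notch, had 2 named genes of 30. The variance-trend fit called both, which is read against the 56.2% of all named genes that it called. Sfrp4, a secreted Wnt binding protein, read 8.09 and 8.41 in Bex, against 5.99 and 6.26 in Ctrl, a log2 difference of 2.12 ± 0.17 (SE). Tcf7l2, a transcription factor of the pathway, had a difference of −0.62 ± 0.08. Sfrp4 had the largest difference of all 20 listed genes, more than those of Pax7, Notch1, Jag1 and Id2.

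**Figure D4:**
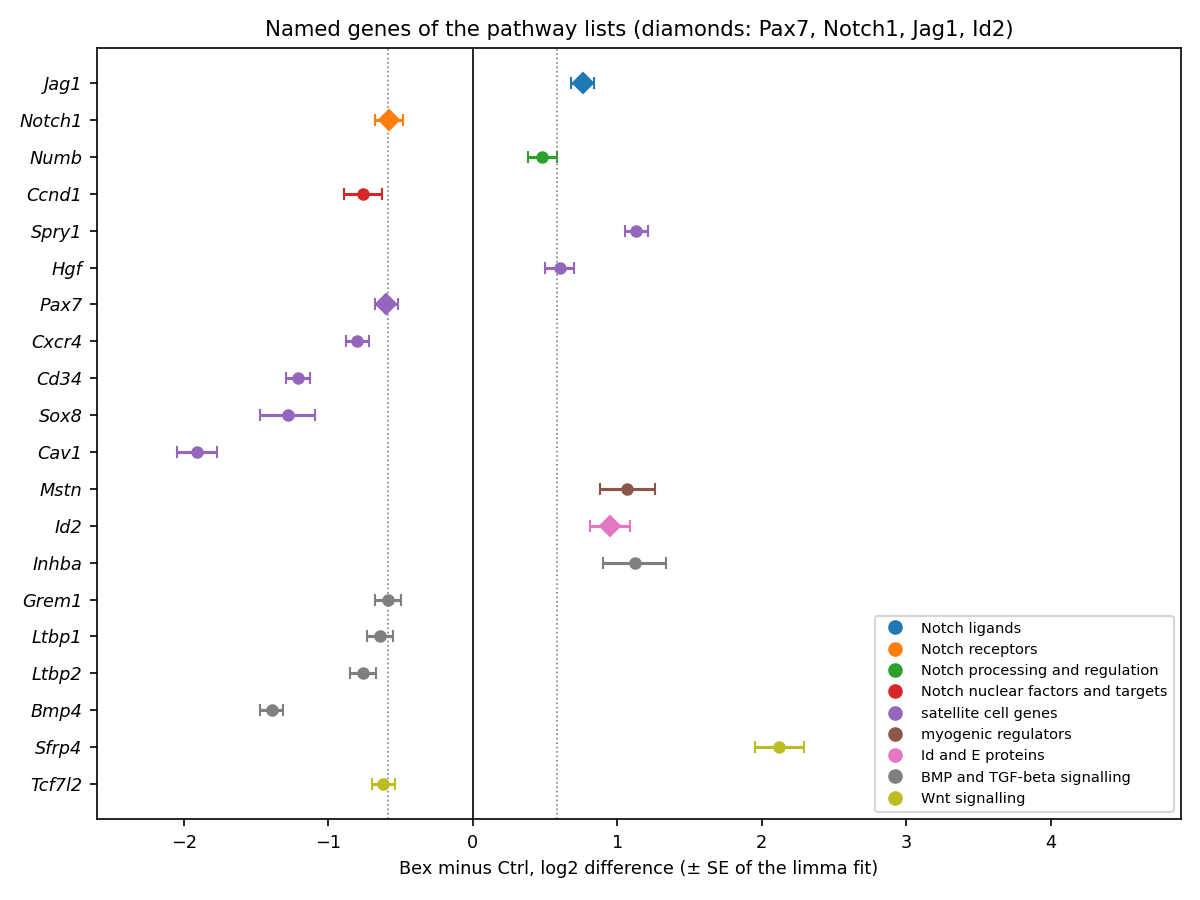
Bex minus Ctrl log2 difference (x axis, ± SE of the limma fit) of the 20 named genes of the Notch, satellite cell, myogenic, Id, BMP and TGF-beta, and Wnt lists, coloured by list, with dotted lines at 1.5-fold and diamonds for Pax7, Notch1, Jag1 and Id2. Differences run from −1.91 for Cav1 to 2.12 for Sfrp4, with Numb and Notch1 inside the dotted lines.

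Markers of other cell types differed on the same arrays, all of them chosen by the same table, and their part in the 4 genes' differences was not tested. Of 9 adipocyte markers 3 were named and higher, namely Pparg, Fabp4 and Plin1, with a summed linear level (log2 values turned back to signal before adding) of 1550 to 1730 in Bex and 370 to 421 in Ctrl. Of 10 skeletal muscle markers Myh3 and Ckm were named and higher, with sums of 3180 to 3920 in Bex and 1840 to 2080 in Ctrl. The myoblast markers Myod1, Myf5 and Des were not analysed here, so the labelled cell type could be checked only by these genes. Of 8 fibroblast and progenitor markers 4 were named, Fap higher and Cd34, Ly6a and Dcn lower, Cd34 being also in the satellite cell list. Their sums were 3400 to 3550 in Bex and 5210 to 5220 in Ctrl. These sums are mostly Ly6a, with log2 means of 11.69 in Bex and 12.26 in Ctrl. Fap read 4.00 and 4.58 in Bex and 3.31 and 3.35 in Ctrl, a mean below 4.57 that makes its difference uncertain. Of 8 smooth muscle and pericyte markers Tagln, Actg2 and Rgs5 were named and lower, summing to 447 to 451 in Bex and 788 to 866 in Ctrl. Most of that sum is Actg2, with log2 means of 8.56 in Bex and 9.42 in Ctrl. Cd14 was the only named macrophage marker of 8, at 173 to 176 in Bex and 81.8 to 107 in Ctrl, and 0 of 8 endothelial markers were named. No marker is at 0 on these arrays, since RMA gives every cluster a level.

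The genes of the authors' deposited table closest in pattern to each of the 4 were found by the Euclidean distance between log2 values of the 4 arrays, each gene centred on its own mean. The search covered 541 clusters with a single symbol, all of them selected by the same contrast. Nearest to Pax7 were Matn2, a matrix adaptor protein, at a distance of 0.029 (log2 difference −0.61), Fam111a at 0.042 (−0.63) and Gypc, a membrane glycoprotein, at 0.042 (−0.56). Nearest to Notch1 were Zfand4 at 0.017 (−0.59), Mxra7 at 0.040 (−0.59) and Lrch1 at 0.050 (−0.54). Jag1 was closest to Gab2, a docking protein of growth factor receptors, at 0.052 (0.71), to 1190002H23Rik at 0.055 (0.72) and to Tbx15, a T-box transcription factor, at 0.058 (0.72). Nearest to Id2 were Fam107a at 0.054 (0.95), the prolyl hydroxylase gene Egln3 at 0.106 (0.91) and the collagen VI chain gene Col6a2 at 0.132 (1.05). None of these 12 genes stands in the Notch, satellite cell or Id lists.

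**Figure D5:**
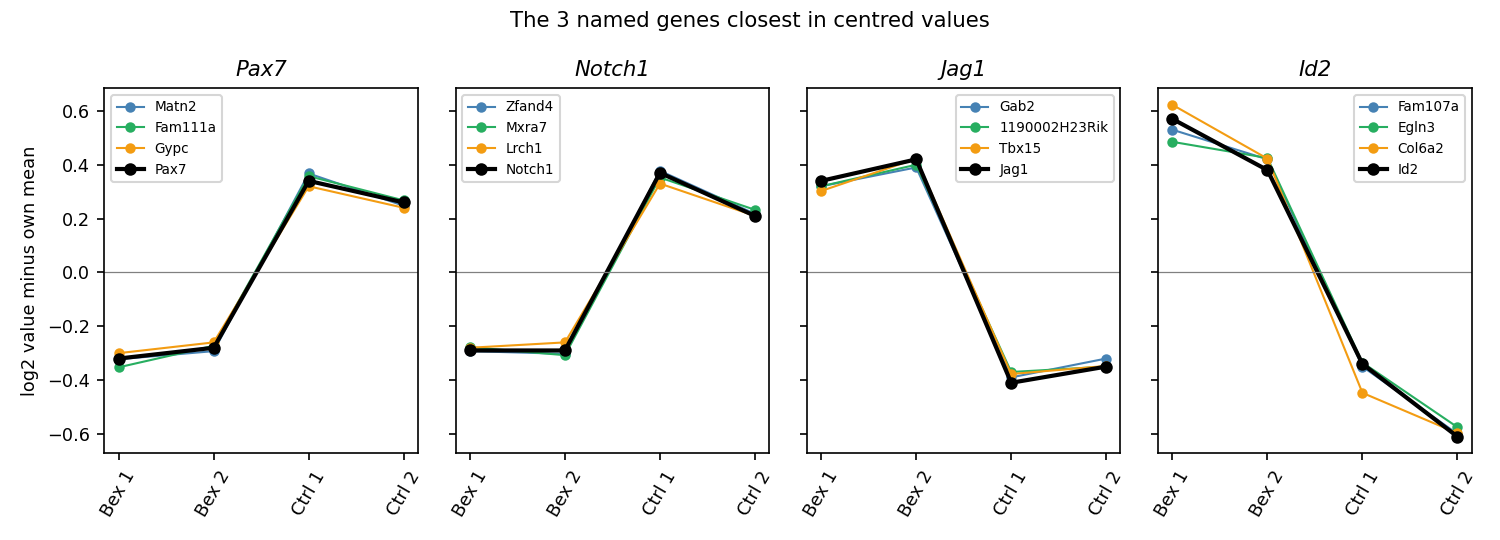
Log2 value minus the gene's own mean over the 4 arrays (y axis) for Pax7, Notch1, Jag1 and Id2 (black) and the 3 named genes closest to each (colours), with lines joining the values of a gene over Bex 1, Bex 2, Ctrl 1 and Ctrl 2. The 3 genes around Id2 lie farther from it (0.054 to 0.132) than those around Notch1 do (0.017 to 0.050).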

How the data were processed

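RNA from 2 Bex and 2 Ctrl samples was amplified, labelled with biotin and hybridised, per the labels' protocols. The deposited log2 values were made by the authors with RMA in Affymetrix Expression Console over core exons, per the labels. The authors' deposited table holds log2 averages, a signed fold (a score), ANOVA p-values and FDR p-values, per the file headers; Transcriptome Analysis Console is named in the submitters' processing notes. The sources used here give no version or annotation release.

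Bex was compared with Ctrl by limma 3.58.1 (lmFit, eBayes) in R 4.3.3 over 35557 clusters, without covariates or filter, p-values adjusted by Benjamini-Hochberg and called under 0.05, after a test on simulated arrays. The 14 clusters with several symbols were not used as genes. For a gene with several clusters the one with the higher mean was counted. Named were Pax7, Notch1, Jag1, Id2, the 3 nearest genes to each and all listed genes in the authors' table. Genes and lists were chosen with earlier results of these data known. Same-numbered arrays did not deviate together (r = 0.0079 between the groups' array differences). Alternatives were a replicate block, a variance trend, scalings, filters, left-out arrays and thresholds. Motifs, lists and plots were made in Python 3.11.15 (pandas 2.3.3, numpy 2.4.6, matplotlib 3.10.9).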

Additional observations from a re-analysis of the deposited data

How the results depend on the processing

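Pax7 and Notch1 stayed lower and Jag1 and Id2 higher under every setting run. Of 48 values, 46 lay less than 1 pooled within-group SD from the main one. Most of these outcomes were fixed in advance. A block, a variance trend or a filter of clusters leaves the difference between group means unchanged. Leaving out 1 array cannot shift it past that SD or, with groups apart, reverse it. Only the median shift, quantile normalization and the authors' averages could have moved a value. The authors' averages gave −0.66 for Notch1 (SD 0.081) and 0.70 for Jag1 (SD 0.051), just past that SD but within the SE of the main differences. With each array left out, differences ran from −0.64 to −0.56 (Pax7), −0.66 to −0.50 (Notch1), 0.72 to 0.80 (Jag1) and 0.81 to 1.08 (Id2), and limma called 0 clusters each time. A replicate block, a median shift and quantile normalization also left limma's count at 0. The count was 427 with the variance trend, 158 with the trend and a replicate block, 105 after dropping the 30% of clusters of lowest mean, 80 when the threshold was 0.1 and 2292 at 1.5-fold with no test. It was 297 after dropping 6669 clusters with IDs lower than any in the authors' table, a limit set by the selected clusters themselves that can drop none of them, so calls under it support nothing; it was added after seeing the data, as were the counts over listed genes. Listed genes called, 0 in the main fit, were 11, 4, 5 and 8 with the trend, the trend and block, the lowest clusters left out and the low IDs left out, in that order. Which of the 4 genes passed depended on the fit, namely Pax7 with the trend, Id2 with trend and block and Jag1 with the low IDs left out. The causes were not tested. Of 491 values of the 41 other named clusters, 481 lay within that SD, 10 moved and 0 reversed. Most of these values could not move either, for the same reasons, and the same contrast had selected the clusters. With 2 arrays a group, a left-out array leaves a single sample assumed to vary like the other group.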

Other observations

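Of the 24 protein-coding genes that are among the 3 nearest on either side of Pax7, Notch1, Jag1 and Id2 in RefSeq, 1 was in the authors' deposited table. This was Agpat2, an acyltransferase of phospholipid and triglyceride synthesis, which lies near Notch1 on chromosome 2. It read 8.55 and 8.18 on the Bex arrays, against 7.35 and 7.32 on the Ctrl arrays, a log2 difference of 1.03 ± 0.15 (SE), opposite in sign to that of Notch1.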
